A study of Oreolalax rhodostigmatus with 13 samples.

Results

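A set of 46 unigenes, the assembled transcripts of the cave toad Oreolalax rhodostigmatus, was highest in tadpoles taken from the dark and lower in every tadpole kept in light. The unigenes were chosen by their measured values. Of 249088 unigenes in the deposited table, 13188 were above 0 in all 13 libraries, had a mean FPKM of at least 1, and had a ratio of the long-term to the short-term exposed mean between 0.67 and 1.5. FPKM, the deposited unit, is a count of sequenced fragments scaled to transcript length and library size. For each of these unigenes the score was the lowest control value divided by the highest value among the 9 light-exposed libraries. The score was above 1 in 46 of them, 0.349%, fewer than the 150 that the rule allowed. In the opposite order, with every control below every exposed library, there were 30 unigenes (0.227%) under the same filters. The order of controls and exposed tadpoles was therefore set by the choice, and the values below describe it without a test.

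The study asked which transcripts change when transparent cave tadpoles darken in light. All 13 wild tadpoles were at Gosner stage 25 and were caught together in 1 dark cave pool. The 4 controls were killed at once. The 6 short-term exposed tadpoles were killed after 4 h, and the 3 long-term exposed tadpoles after 30 h, in a cage in the pool at the lit cave entrance. A broad-spectrum lamp was used there at night. By the clock times in the methods, the 4 h exposure would have ended before the lamp was used. The light source may thus also differ between the exposed groups. No genetic or chemical treatment was applied. Each library came from 1 tadpole, so replicates are separate animals, but the exposed tadpoles shared a cage. Light, time of day and captivity differed together between controls and exposed tadpoles, and these cannot be told apart. The study's methods list skin of the back, liver, eyeballs and a piece of tail, put together in 1 tube per tadpole, and the labels leave out the tail. In such pooled tissue, fewer cells of a type and less RNA per cell cannot be told apart.

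Amphibian skin colour comes from several kinds of pigment cell. Melanophores hold melanin, while xanthophores hold pteridines and carotenoids. A pigment cell can respond to light within minutes by moving its pigment and over longer times by changing the transcription of the enzymes that make it. Ras-family GTPases such as RIT1 are molecular switches that pass signals from receptors at the cell surface to kinase cascades, among them the MAPK cascade.

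Only 1 of the 46 unigenes carried a protein name in the annotation entries and gene lists used here, which cover part of the assembly. Names of the other 45 were not used here, and they are given by their cluster number. All 46 belonged to 1 supercluster of the assembly, as did 98.9% of the 13188 unigenes that passed the filters and 69.7% of all unigenes.

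The FPKM of a library summed to between 983190 and 1070969. Between 112990 and 134725 unigenes were above 0 in controls, between 91929 and 136138 in short-term and between 140196 and 147363 in long-term exposed libraries. FPKM keeps no read counts, so no counting error is given. Short-term exposed replicate 5 stood apart with the fewest unigenes above 0. Its median-of-ratios factor, a scale set by the unigenes above 0 in every library, was 0.619, against 0.858 to 1.32 in the other 12 libraries. Protein-name lists were used as tissue markers, and none of the 46 unigenes was on one. Only the 1 with a protein name could have matched, so this says nothing of the others. The names came in part from gene lists that the study drew up from these samples in its search for light-inducible genes. The lists may therefore favour unigenes that rise in light, and their sums are not a measure of tissue content. The hepatocyte list, 7 unigenes led by albumin, summed to 854 to 2177 FPKM in controls, 542 to 2493 in the short-term and 8128 to 12019 in the long-term exposed group. Some of them, such as alpha-2-macroglobulin-like protein 1, were matched by words in the name and may not be specific to hepatocytes. Others had their best hit in Bos taurus. The melanophore list, 12 unigenes, summed to 3.39 to 11.8 FPKM in controls, 5.52 to 14.8 at 4 h and 26.0 to 52.3 at 30 h. Each library also held eyeballs, so these transcripts need not come from the skin. Of the other labelled tissues, the lens list rested on 1 crystallin, at 0 to 1.04 FPKM in controls, 0.66 to 2.15 at 4 h and 6.77 to 7.83 at 30 h. Epidermis rested on 2 desmoglein unigenes, at 11.0 to 36.1, 4.93 to 43.3 and 15.3 to 42.1 FPKM in sum, and no photoreceptor marker was matched. The 9 unigenes of the muscle list summed to 14.3 to 26.8, 9.55 to 57.2 and 26.1 to 50.8 FPKM. Some of them, such as myosin light polypeptide 6, were matched by the words myosin light and may not be specific to muscle. The stress and clock list, 13 unigenes at 3.30 to 5.66, 1.67 to 7.15 and 8.20 to 33.0 FPKM, was led by a growth factor (vascular endothelial growth factor D) that was matched by the word fos in its name and is no stress or clock gene. The other 12 summed to 0 to 0.19 FPKM in controls, 0 to 0.38 at 4 h and 1.07 to 24.6 at 30 h. Several of them had their best hit outside amphibians, such as Perkinsus marinus and Bombyx. Whether they are genes of the toad was not tested, so their sums are not read as its stress or clock response. No erythrocyte marker was matched.

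RIT1, listed as Ras-like without CAAX 1 with a best hit in Xenopus laevis, was the named unigene (Cluster-29057.137310). In mammals it is a small GTPase that acts upstream of MAPK kinases and lacks the lipid anchor of classical Ras. Its FPKM in control replicates 1 to 4 was 4.86, 3.67, 5.31 and 5.79. The 6 short-term exposed tadpoles had, in the order of their replicate numbers, 1.03, 2.99, 3.00, 2.44, 1.45 and 0.73. The 3 long-term exposed tadpoles had 2.27, 2.04 and 1.43. The lowest control lay above the highest exposed tadpole by a factor of 1.22, and the long-term values lay inside the short-term range. The group means were 4.91 ± 0.908 FPKM in controls (SD, n = 4), 1.94 ± 1.00 in the short-term (SD, n = 6) and 1.91 ± 0.434 in the long-term exposed group (SD, n = 3). RIT1 was thus 2.53-fold higher in controls than after 4 h and 2.56-fold higher than after 30 h. When libraries were rescaled by their median-of-ratios factors, the score of RIT1 was 1.66 and the folds were 2.49 and 2.47.

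**Figure D1:**
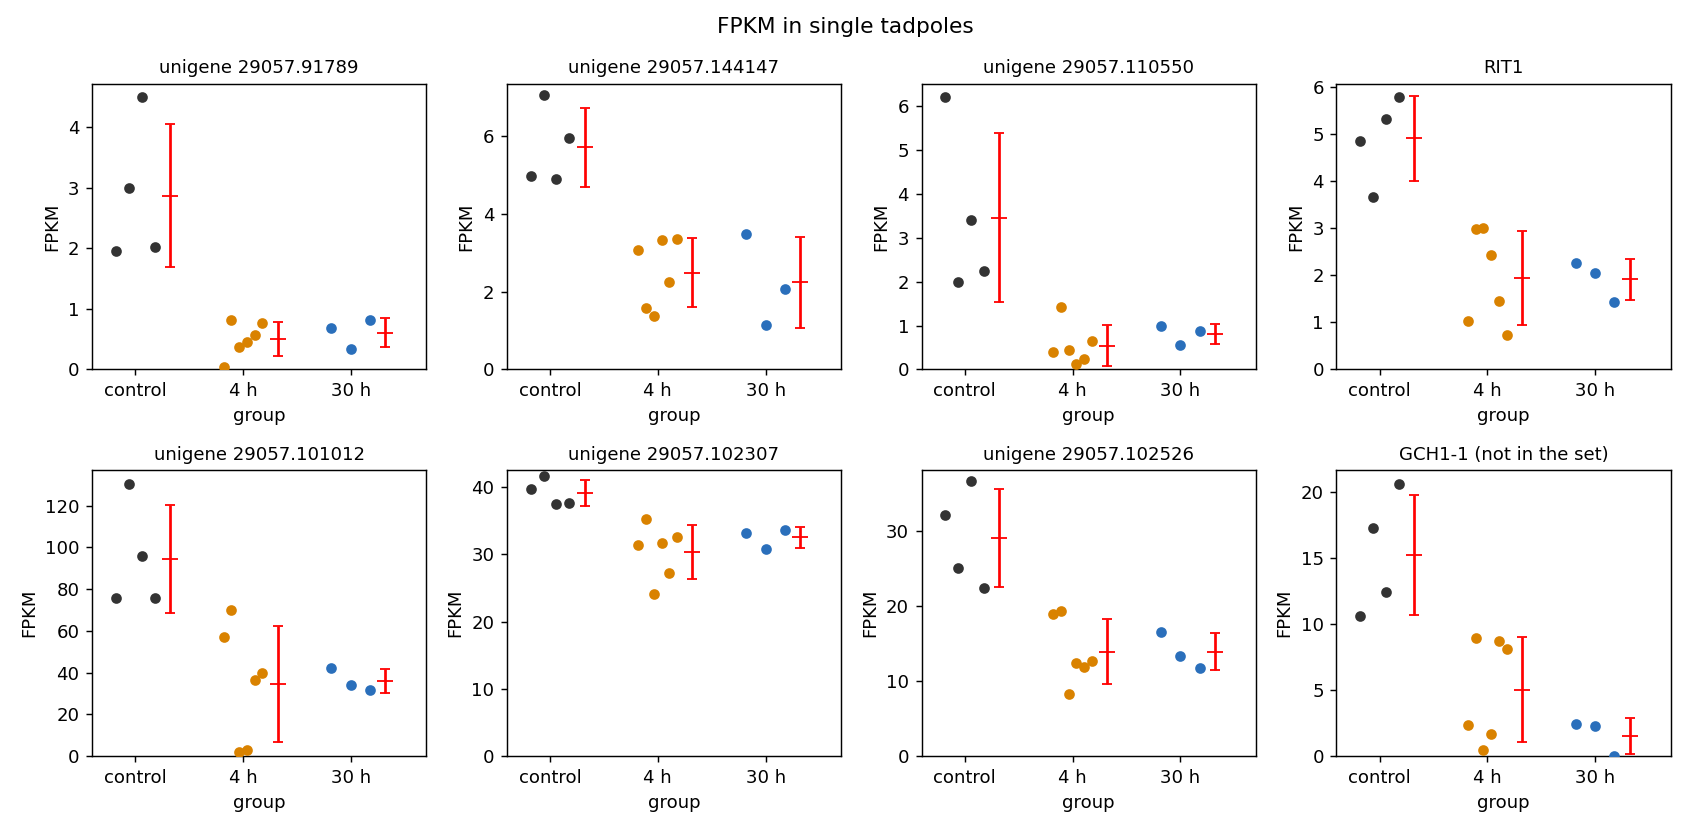
FPKM (vertical axes, linear) of 7 of the 46 unigenes and of GCH1-1 in single tadpoles, grouped as control (black, n = 4), 4 h of light (orange, n = 6) and 30 h of light (blue, n = 3). Red marks give the mean and SD of each group. In the panels of the 7 unigenes every black point lies above every coloured point, as the choice required, by a wide gap in Cluster-29057.91789 and a narrow one in Cluster-29057.102307.

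The widest gap between controls and exposed tadpoles was in Cluster-29057.91789, with a score of 2.42. Its controls were at 1.96, 3.00, 4.50 and 2.03 FPKM. The short-term exposed tadpoles had 0.04, 0.81, 0.37, 0.46, 0.57 and 0.77, and the long-term exposed tadpoles 0.68, 0.34 and 0.81. All 9 exposed tadpoles were below 1 FPKM, and the controls themselves differed by more than the exposed tadpoles did in FPKM. The control mean, 2.87 ± 1.18 FPKM (SD, n = 4), was 5.71-fold the short-term mean of 0.503 ± 0.284 (SD, n = 6) and 4.71-fold the long-term mean of 0.610 ± 0.243 (SD, n = 3). The gap held after rescaling, at a score of 1.68.

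The next scores were 1.40 for Cluster-29057.144147, 1.40 for Cluster-29057.110550 and 1.39 for Cluster-29057.125546. In Cluster-29057.144147 the controls were at 4.98, 7.06, 4.90 and 5.95 FPKM, the short-term exposed tadpoles ranged from 1.38 to 3.36 (median 2.66), and the long-term exposed were at 3.49, 1.15 and 2.08. One tadpole at 30 h was the highest of the 9, while another was the lowest. In Cluster-29057.110550 the controls were at 6.21, 2.00, 3.40 and 2.24 FPKM, the short-term range was 0.12 to 1.43 (median 0.415), and the long-term values were 0.99, 0.55 and 0.87. Control replicate 1 stood well above the other controls, with a coefficient of variation (CV, the SD as a percent of the mean) of 55.8%. Cluster-29057.110550 was 6.33-fold higher in controls than after 4 h and 4.31-fold higher than after 30 h. In Cluster-29057.125546 the controls were at 2.51, 1.83, 1.86 and 1.93 FPKM, the short-term range was 0.64 to 1.32 (median 0.955), and the long-term values were 0.55, 0.88 and 1.13. Here the gap was narrow in FPKM but the control values were close to each other apart from replicate 1. After rescaling, Cluster-29057.144147 and Cluster-29057.110550 kept a score above 1 (1.11 and 1.38) and Cluster-29057.125546 did not (0.977). The rescaled ratio of the exposed groups in Cluster-29057.110550 was 1.52, just outside the limit of 1.5.

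By the mean over the 13 libraries, the most abundant of the 46 was Cluster-29057.101012. Its controls were at 75.6, 130, 95.8 and 75.8 FPKM. The short-term exposed tadpoles had 57.2, 70.0, 2.11, 3.07, 36.5 and 39.7, and the long-term exposed tadpoles 42.3, 34.0 and 31.7. Replicates 3 and 4 of the short-term group were far below all other tadpoles, while replicate 2 came close to the lowest control. The 3 tadpoles at 30 h were close to each other and to short-term exposed replicates 5 and 6. The mean was 94.4 ± 25.8 FPKM in controls (SD, n = 4), 34.8 ± 27.7 at 4 h (SD, n = 6) and 36.0 ± 5.54 at 30 h (SD, n = 3), so nearly equal exposed means came from very unequal spreads. The hepatocyte list was also low in short-term exposed replicates 3 and 4, at 542 and 597 FPKM, but about as low in replicate 1, at 569 FPKM, where this unigene was not. Its part in these values was not tested.

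Cluster-29057.102307 was second in abundance and had the smallest folds of the 46. Its controls were at 39.7, 41.6, 37.5 and 37.6 FPKM. The short-term exposed tadpoles ranged from 24.2 to 35.2 (median 31.5), and the long-term exposed tadpoles were at 33.2, 30.8 and 33.6. The groups did not overlap although the control mean was only 1.29-fold the 4 h mean and 1.20-fold the 30 h mean. The control CV was 5.00%. After rescaling the order was lost, with a score of 0.651. Cluster-29057.102526, next by the mean over the 13 libraries but below Cluster-29057.105013 by the control mean (29.0 against 32.2 FPKM), had controls at 32.1, 25.1, 36.6 and 22.4 FPKM, short-term values from 8.33 to 19.3 (median 12.5) and long-term values of 16.6, 13.4 and 11.8. Its exposed means were 13.9 FPKM in both groups, 2.09-fold below the control mean, and its rescaled score was 0.803.

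Over the 46 unigenes the control mean ranged from 1.72 to 94.4 FPKM with a median of 4.84. It was at least 5 FPKM in 22 of them, at least 10 in 11 and at least 20 in 4. The median control level of the 13188 unigenes that passed the filters was 4.04 FPKM, so most of the 46 were of ordinary, low abundance. The control mean was 1.29- to 6.82-fold the short-term mean (median 2.40) and 1.20- to 6.11-fold the long-term mean (median 2.48). Over the 13188 unigenes the medians of these folds were 0.996 and 1.01. The control mean was at least 2-fold both exposed means in 32 of the 46, at least 3-fold in 8, at least 4-fold in 5 and at least 5-fold in 1.

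**Figure D2:**
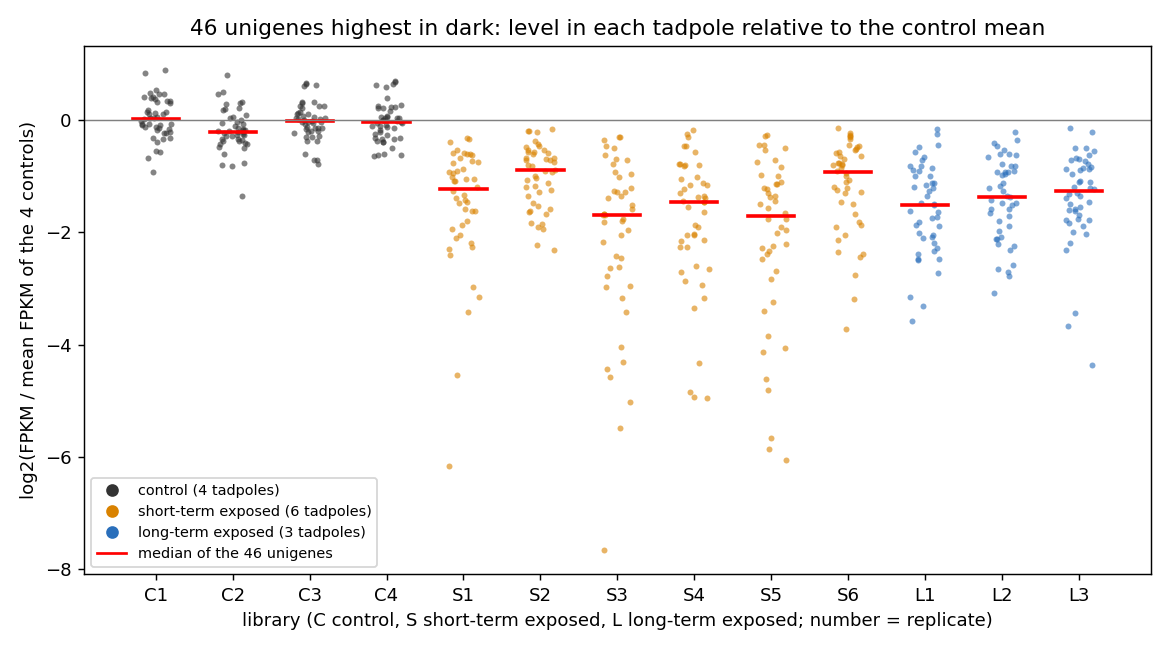
Level of each of the 46 unigenes in each library as log2 of FPKM over the mean FPKM of the 4 controls (vertical axis), with controls in black, short-term exposed libraries in orange and long-term exposed libraries in blue. Each point is 1 unigene and each red line is the median of the 46, which lies nearest to the controls in short-term exposed replicates 2 and 6.

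In single tadpoles the median level of the 46 unigenes was 86.8% to 102% of the control mean in controls. It was 42.9%, 54.0%, 31.0%, 36.5%, 30.6% and 52.6% in replicates 1 to 6 of the short-term group. At 30 h it was 35.3%, 38.9% and 41.6%. The 3 long-term medians lay inside the short-term range. At least 5 of the 9 exposed tadpoles were under 50% of the control mean in 34 of the unigenes, and all 9 were in 6 of them. In 19 unigenes at least 1 exposed tadpole was under 10% of the control mean. These very low values were mostly in short-term exposed replicate 5 (9 unigenes), replicate 3 (8) and replicate 4 (5), and at most 3 unigenes had one in any other exposed library. There were none in replicate 2 of either exposed group. The share of the 13188 unigenes with such low values was not counted. Short-term exposed replicate 5 was low over the 13188 too, with a median log2 to its group mean of -0.770, against -0.379 in the 46. Replicates 3 and 4 of that group were above the group mean over the 13188, at 0.285 and 0.182, but below it in the 46, at -0.429 and -0.222. The rule left out unigenes that were high in any 1 exposed library, so this contrast cannot be read apart from the choice.

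The spread between tadpoles differed by group. The median CV of the 46 unigenes was 22.9% in controls, 47.0% in the short-term and 33.4% in the long-term exposed group. Over the 13188 unigenes it was 33.6%, 48.5% and 28.5%. The rule itself favoured a small spread in controls, since a unigene with 1 low control could hardly score above 1. The highest control was 1.09 to 3.91 times the lowest (median 1.61). The highest short-term exposed tadpole was 1.46 to 70.6 times the lowest (median 4.30). The CV was larger at 4 h than in controls in 42 of the 46 unigenes, beside 76.6% of the 13188. The unigene with the 70.6-fold range was Cluster-29057.101683, named here after its values were seen. It was at 4.70, 5.65, 0.08, 0.53, 0.32 and 3.00 FPKM in the short-term exposed tadpoles. The lowest of these, 0.08 FPKM, was near the floor of values rounded to 2 decimals, so the size of the fold is uncertain. The controls of this unigene, at 21.1, 6.39, 25.0 and 12.4 FPKM, were also unequal, and control replicate 2 exceeded the highest exposed tadpole by a factor of 1.13 only.

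The rule fixed that controls were highest and did not name the tadpole at either edge. It did bear on the edges, since a unigene high in any 1 exposed library was left out. Short-term exposed replicates 3 and 4 were the highest of the 9 in 22.8% and 24.4% of the 13188 unigenes. They were so in 3 and 2 of the 46. The counts below therefore cannot be read apart from the choice, and which tadpole was highest changed with rescaling. The exposed tadpole closest to the controls was short-term exposed replicate 2 in 18 of the 46 unigenes and replicate 6 in 10. Together these 2 libraries were the highest exposed in 28 unigenes, while they were the highest of the 9 in 22.0% of the 13188 that passed the filters. A long-term exposed library was the highest of the 9 in 9 of the 46, a share close to the 19.0% of the 13188. The lowest exposed tadpole was short-term exposed replicate 3 in 12 unigenes, replicate 5 in 10, replicate 4 in 7 and replicate 1 in 6. Over the 13188 these shares were 5.10%, 42.4%, 6.68% and 21.2%. On the control side, replicate 2 was the lowest control in 18 of the 46 and in 45.6% of the 13188. Without control replicate 2, 131 unigenes scored above 1 under the same filters. Without replicate 1, 3 or 4 of the controls the number was 72, 84 or 77, and without short-term exposed replicate 2 it was 78. Leaving out a library can raise a score but never lower it, while the filters on the mean and the ratio are applied anew. The rule thus favours a larger number, which says nothing of that tadpole, and a unigene can leave the set only through those filters. The 46 unigenes themselves all stayed in the set without control replicate 2. With 1 library left out, 34 to 46 of them stayed, the fewest without long-term exposed replicate 3 (34), replicate 2 (36) or replicate 1 (39) and without short-term exposed replicate 2 (38).

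The 2 exposed groups were close to each other because the rule limited their ratio. The long-term mean was 0.671 to 1.49 times the short-term mean, with a median of 0.993, and was higher in 23 unigenes and lower in the other 23. The ratio was under 0.7 or above 1.4 in 10 of them. All 3 long-term values lay within the short-term range in 30 of the 46 unigenes, beside 68.4% of the 13188. In none did every long-term tadpole lie above, or every one below, all short-term tadpoles. The limit on the ratio works against such an order, and its share over the 13188 was not counted, so nothing is read from this.

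**Figure D3:**
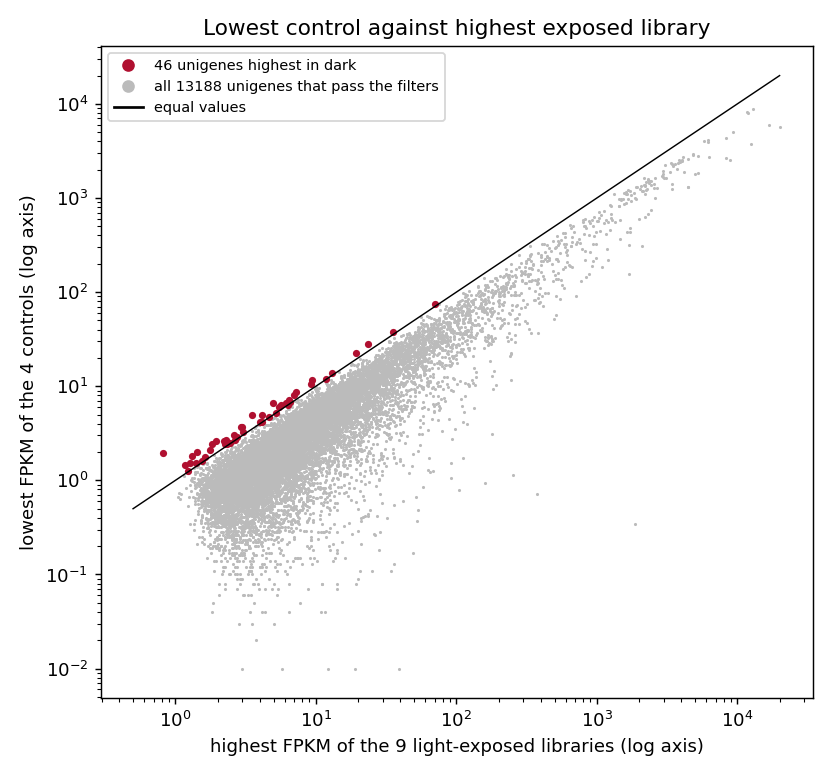
Lowest control FPKM (vertical, log axis) against highest FPKM of the 9 exposed libraries (horizontal, log axis) for the 13188 unigenes that passed the filters (grey) and the 46 unigenes highest in dark (red). The red points are those above the line of equal values, and most lie close to it.

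Most scores were close to the limit. The median score was 1.12, and 25 unigenes scored above 1.1, 13 above 1.2, 7 above 1.3 and 1 above 2. Just inside the limit, Cluster-29057.81919 had its lowest control at 2.66 FPKM and its highest exposed tadpole at 2.64, and Cluster-29057.118499 had 6.38 and 6.34. Just outside it, Cluster-29057.101813 had both at 1.46 FPKM and Cluster-29057.132514 had 3.74 and 3.76. Without any filter, 384 of the 249088 unigenes had every control above every exposed tadpole, and 181 had every control below every exposed tadpole. In that opposite order, 91 were above 0 in all libraries. Of the 384, 278 were listed at 0 in an exposed library, which in FPKM may be a failed estimate. Of the 106 of the 384 that were above 0 in all libraries, 25 had a mean FPKM under 1. Another 35 had a ratio of the exposed groups outside the limits, with the 30 h mean lower in 17 and higher in 18. With only the filter on 0 dropped, 58 unigenes scored above 1 and 39 had the opposite order.

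The order of the groups depended on how libraries were scaled. With median-of-ratios factors, 21 of the 46 unigenes still scored above 1, and 16 of them also passed the filters. The rescaled scores ranged from 0.493 to 1.68 with a median of 0.987. The group means moved little. All 46 unigenes kept a control mean above both exposed means, and the median folds were 2.33 over the short-term and 2.48 over the long-term exposed mean. The highest exposed library was now short-term exposed replicate 5 in 15 unigenes and replicate 1 in 11, whose factors under 1 raise their values, and replicate 2 in 7 instead of 18. Under that scaling 48 of all unigenes scored above 1 and 55 had the opposite order, so there were no longer more unigenes highest in dark than lowest in dark. On FPKM as deposited the same held without short-term exposed replicate 5, the library with the fewest unigenes above 0 (57 against 64), without control replicate 4 (77 against 97), and without replicates 1 of both exposed groups (72 against 97).

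**Figure D4:**
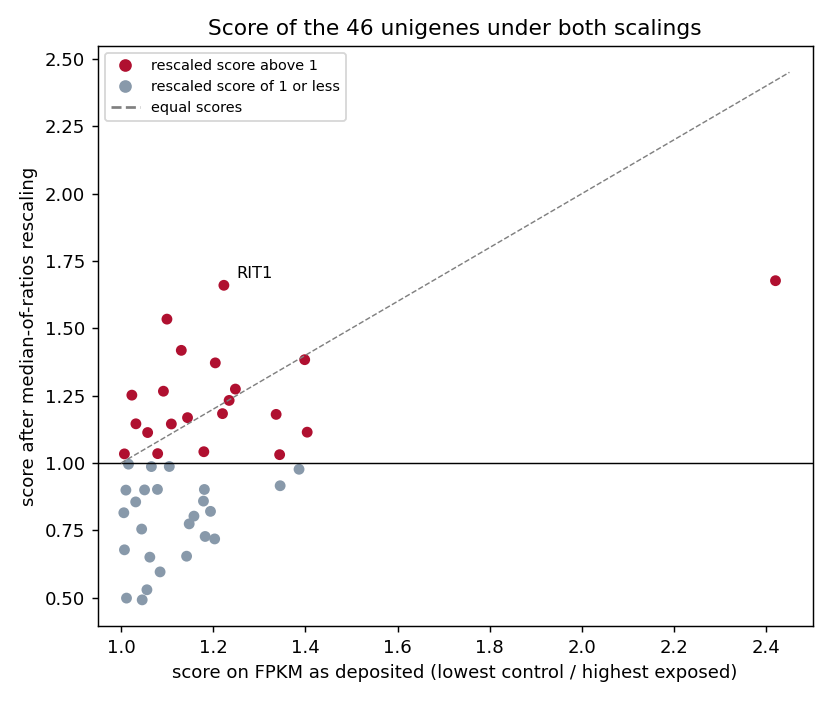
Score of the 46 unigenes (lowest control over highest exposed library) on FPKM as deposited (horizontal axis) and after median-of-ratios rescaling (vertical axis). Red points kept a score above 1, 21 of 46, and RIT1 is at 1.22 and 1.66.

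In limma, fitted on log2(FPKM + 0.1) over 147192 unigenes with Benjamini-Hochberg adjustment, 0 of the 46 were called lower after 4 h, beside 0.0401% of all unigenes tested, and 0 after 30 h, beside 0.399%. Called higher were 0 of the 46 after 4 h, beside 0.0408% of all unigenes, and 0 after 30 h, beside 0.975%. Unadjusted p was under 0.05 in 37 and 27 of them, and the smallest adjusted p was 0.145 and 0.0781. The share of all unigenes with an unadjusted p under 0.05 was not counted. Between 30 h and 4 h, 0 were called in either direction and 0 had an unadjusted p under 0.05, beside 0.957% of all unigenes called lower and 2.09% called higher. The rule used these same contrasts, so nothing is read from these counts. The median difference of the 46 on the log2(FPKM + 0.1) scale, which understates changes of low unigenes, was -1.35 at 4 h and -1.32 at 30 h, against -0.10 and 0.20 over all unigenes tested. Without short-term exposed replicate 1, 6 of the 46 were called lower after 4 h, and 482 of all unigenes instead of 59.

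The colour gene list of the study, 31 entries for melanin, pteridine, carotenoid and pigment-movement genes chosen on these samples, was set beside the 46. None of its entries was among them, and 27 could be tested. The melanocortin receptors MC1R, MC4R and MC5R and melanophilin X4, each a single unigene, were too low to be tested. Entries of several unigenes were summed and fitted without the filter of 0.3 FPKM in 3 libraries. Melanophilin X3, with a 30 h mean of 0 FPKM, was thus tested. The called entries below, of PMEL and melanoregulin, are such sums, while the shares are over single unigenes that passed the filter. After 4 h, 0 were called in either direction (limma), beside 0.0401% of all unigenes called lower and 0.0408% higher. With so few entries, nothing is read from that 0. After 30 h, beside 0.399% of all unigenes called lower and 0.975% higher, 0 entries were called lower and 1 higher. This was premelanosome protein (PMEL), the scaffold on which melanin is laid down, with a log2 difference of 2.60 (SE 0.60, adjusted p = 0.0466), and the call was lost when any 1 control was left out. A second entry of the gene, PMEL x1, was not called, with a log2 difference of 1.26 (limma adjusted p = 0.698). It was at 1.26, 0 and 0 FPKM in the long-term exposed tadpoles. Between 30 h and 4 h, 2 entries of melanoregulin, which takes part in melanosome transfer, were higher, by 3.10 and 3.50 on the log2 scale (SE 0.56 and 0.73, adjusted p = 0.00848 and 0.0195). Over all unigenes tested, 0.957% were called lower and 2.09% higher. The 4 h means of these entries, 0.75 and 0.125 FPKM, were low and lay below the control means of 2.02 and 0.31. Against controls, their 30 h differences of 1.84 and 2.28 were not called (limma adjusted p = 0.197 and 0.232). Whether the melanoregulin calls held with libraries left out was not counted. The 1 entry that had every control above every exposed tadpole was GCH1-1, a unigene of GTP cyclohydrolase 1, the first enzyme of pteridine and tetrahydrobiopterin synthesis. Its controls were at 10.6, 17.3, 12.5 and 20.6 FPKM, its short-term exposed tadpoles at 2.33, 8.93, 0.45, 1.70, 8.74 and 8.16, and its long-term exposed tadpoles at 2.44, 2.26 and 0. With a score of 1.19 it failed the rule because of the 0 and because its 30 h mean was far below its 4 h mean. GCH1-1 was lowest at 4 h in replicates 1, 3 and 4, the same tadpoles in which the hepatocyte list was at 542 to 597 FPKM, against at least 1187 in the other short-term exposed tadpoles, while at 30 h the list was at its highest and GCH1-1 at its lowest mean, 1.57 FPKM against 5.05 at 4 h. The part of liver in its values was not tested. Both other GTP cyclohydrolase 1 entries lacked the order. GCH1-2 scored 0.0341, with a control at 0.12 FPKM and an exposed tadpole at 3.52, and GCH1-3 scored 0.181, with a control at 2.67 and an exposed tadpole at 14.7. Dihydropteridine reductase, which regenerates tetrahydrobiopterin, passed the filters with a score of 0.553. Apart from RIT1, the named unigene with the highest score among those that passed the filters was cactin, at 0.857.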

How the data were processed

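RNA of 13 tadpoles was sequenced by the study on an Illumina HiSeq instrument after poly-A selection. The authors checked reads with FastQC, removed adapter, poly-N and low-quality reads, assembled all libraries de novo with Trinity and deposited FPKM values, rounded to 2 decimals. How reads were aligned and counted was not stated in the text or labels read here. The 13 columns were matched to samples by name, and 0 columns were left unmatched.

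The members and lists were chosen with earlier results of these data known. Scores, means, SDs and CVs were computed on FPKM as deposited with Python 3.11.15, pandas 2.3.3 and numpy 2.4.6. Figures were drawn with matplotlib 3.10.9. limma 3.58.1 in R 4.3.3 was fitted on log2(FPKM + 0.1) with a mean-variance trend, over unigenes that reached 0.3 FPKM in 3 or more libraries, with adjusted p under 0.05 as the threshold. Colour entries of several unigenes were summed before the logarithm and added to the fit without that filter. The code was tested on simulated data. Exact tests were not run on the members, because the rule used the groups. Named unigenes were those with a protein name, the 4 highest scores, the 3 highest means, the 2 members nearest the limit and the 2 unigenes just outside it, named unigenes with the same order that failed a filter, and colour entries that had the order or were called. Markers were matched as whole words in protein names. Alternatives were pseudocounts of 1 and 0.01, no filter and a filter of 1 FPKM, median-of-ratios scaling, the replicate number as a block, only the groups compared, each library left out, both replicates 1 left out, and the rule with each filter changed.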

Additional observations from a re-analysis of the deposited data

Results flagged for a closer look

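In 1 of the 10 named members, the value of a single tadpole was far from the others of its group by Dixon's ratio. Control replicate 1 of Cluster-29057.125546 had 2.51 FPKM, against 1.83 to 1.93 in the other 3 controls. Over the 46 unigenes, 7 of 92 groups checked had such a value, and chance flags about 1 in 20 groups.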

How the results depend on the processing

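For the unigenes that scored above 1 (46), the count was 81 with no limit on the ratio of the exposed groups and 16 with a mean FPKM of at least 5. In the opposite order (30) these counts were 79 and 12. The number that scored above 1 was 72 without both replicates 1 of the exposed groups, and 52 to 131 with single libraries left out. Of the 46, 16 kept the score and the filters under median-of-ratios scaling. Members called lower after 4 h (0) numbered 6 without both replicates 1 and 0 to 6 with single libraries left out (6 without short-term exposed replicate 1, 1 without replicate 2). Of all unigenes, 605 were called lower without both replicates 1, 482 without short-term exposed replicate 1 and 77 without replicate 2. Members called lower after 30 h (0) numbered 1 with a pseudocount of 1, 3 with only the groups compared and 0 to 1 with single libraries left out (1 without short-term exposed replicate 4). Of all unigenes, 529, 943 and 605 were called lower in these settings, in that order. How many unigenes were tested with fewer libraries was not counted, so nothing is read from these member counts. Between 30 h and 4 h the count was 0 in every alternative run. Over all unigenes, calls lower after 4 h (59) were 605 without both replicates 1 and 38 to 482 with single libraries left out (108 and 91 without control replicates 1 and 2, 482 and 38 without short-term exposed replicates 1 and 3). Calls lower after 30 h (588) were 943 with only the groups compared, 203 without both replicates 1 and 171 to 782 with single libraries left out (388 and 352 without control replicates 3 and 4, 185, 171 and 185 without long-term exposed replicates 1, 2 and 3). Calls of colour entries against controls (1) were counted in either direction over 4 h and 30 h together. They numbered 4 with a pseudocount of 1, 0 with a pseudocount of 0.01 and 2 with median-of-ratios scaling. With single libraries left out they numbered 0 to 2. The 1 call was lost without any 1 of the controls, the long-term exposed libraries or short-term exposed replicate 4. Without short-term exposed replicate 5 there were 2 calls. The causes were not tested. With a replicate block the counts were 0 for the members in all comparisons, 1 and 162 for all unigenes lower after 4 h and 30 h, and 0 for the colour entries. Same-numbered libraries correlated at -0.109 to 0.0188 in their deviations from the group means, so the numbers do not pair the tadpoles. Depth could not be read from FPKM, and the study's own summary of sequencing quality was not used here, so counting error is not given.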
